A study of Caenorhabditis elegans with 2 samples.

Results

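SCC-1 binding on chromosome V of Caenorhabditis elegans is described here from the authors' list of SCC-1 peaks. Its members were all peaks that the list places on chromosome V, 1090 of 6780 in all. The list comes from 1 library of chromatin immunoprecipitation followed by sequencing (ChIP-seq), made from whole hermaphrodites of the strain fem-2(b245) with genotype fem-2(b245)III, which the labels place at the stage of a young adult with a germline and at 20 °C. 1 library of input DNA from the same strain was sequenced beside it, and its signal was not analysed here. The growth protocol speaks of gravid adults, so the stage is given in more than one way. For the rabbit polyclonal antibody SDQ0821, raised against a fragment of SCC-1, the ChIP protocol names affinity purification, whereas the antibody record lists it as crude. Whole animals hold germline and soma, so a peak cannot be placed in a cell type. With 1 library, the spread between samples and the read depth behind each peak are unknown.

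SCC-1 is a kleisin, the subunit that closes the ring of the cohesin complex in mitotically dividing cells. Cohesin holds sister chromatids together and also shapes chromosomes into loops, and worms use other kleisins, REC-8 among them, in meiosis. The gene fem-2 codes for a phosphatase that acts in sex determination. The autosomes of C. elegans have no single point centromere. Their gene-rich centres are flanked by arms with more repeats and more meiotic recombination, and chromosome V, the longest of them, carries many genes of chemoreceptor families in its arms. Each chromosome has near one end a pairing centre at which homologues meet in meiosis. Gene annotation and genome sequence of the build WormBase WS220 were not used here, so peaks were not tied to genes and no sequence is shown.

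SCC-1 peaks were sparser on chromosome V than on any other autosome. Chromosome V held 1090 peaks between its first and last peaks, which lie 20.9 Mb apart, or 52.3 peaks per Mb with an exact Poisson 95% interval from 49.2 to 55.5. Chromosomes I to IV together held 5182 peaks on 61.5 Mb, or 84.2 per Mb with an interval from 81.9 to 86.5. The density on chromosome V was thus 0.621 of theirs, with an exact (Clopper-Pearson) binomial 95% interval from 0.581 to 0.663. Against single autosomes, the ratio was 0.764 for chromosome IV, with an interval from 0.704 to 0.831, and 0.516 for chromosome III, with an interval from 0.477 to 0.559. The interval lay below 1 for each of the 4 other autosomes. All intervals cover counting error only, treat peaks as independent although they cluster, and are not adjusted for the number of comparisons.

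The lower density was spread over weak and strong peaks. Each peak has a score from the authors' peak caller whose scale is not named, and scores pile up at 3100. All 6780 peaks were ranked by score into 4 classes of equal size. From the lowest class to the highest, the density on chromosome V was 0.601, 0.714, 0.594 and 0.578 of that on chromosomes I to IV. The 4 intervals lay between 0.505 and 0.810 at their outer bounds, and each overlapped the others. Sorted by width instead, the ratio was 0.677 for peaks under 1 kb, with an interval from 0.606 to 0.755. It was 0.543 for peaks of 5 kb or wider, with an interval from 0.387 to 0.746, and the intervals of all 4 width classes overlapped. By covered length, peaks took up 1.86 Mb, or 8.93% of the span of chromosome V, against 15.3% of the span of chromosomes I to IV, a ratio of 0.583.

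**Figure D1:**
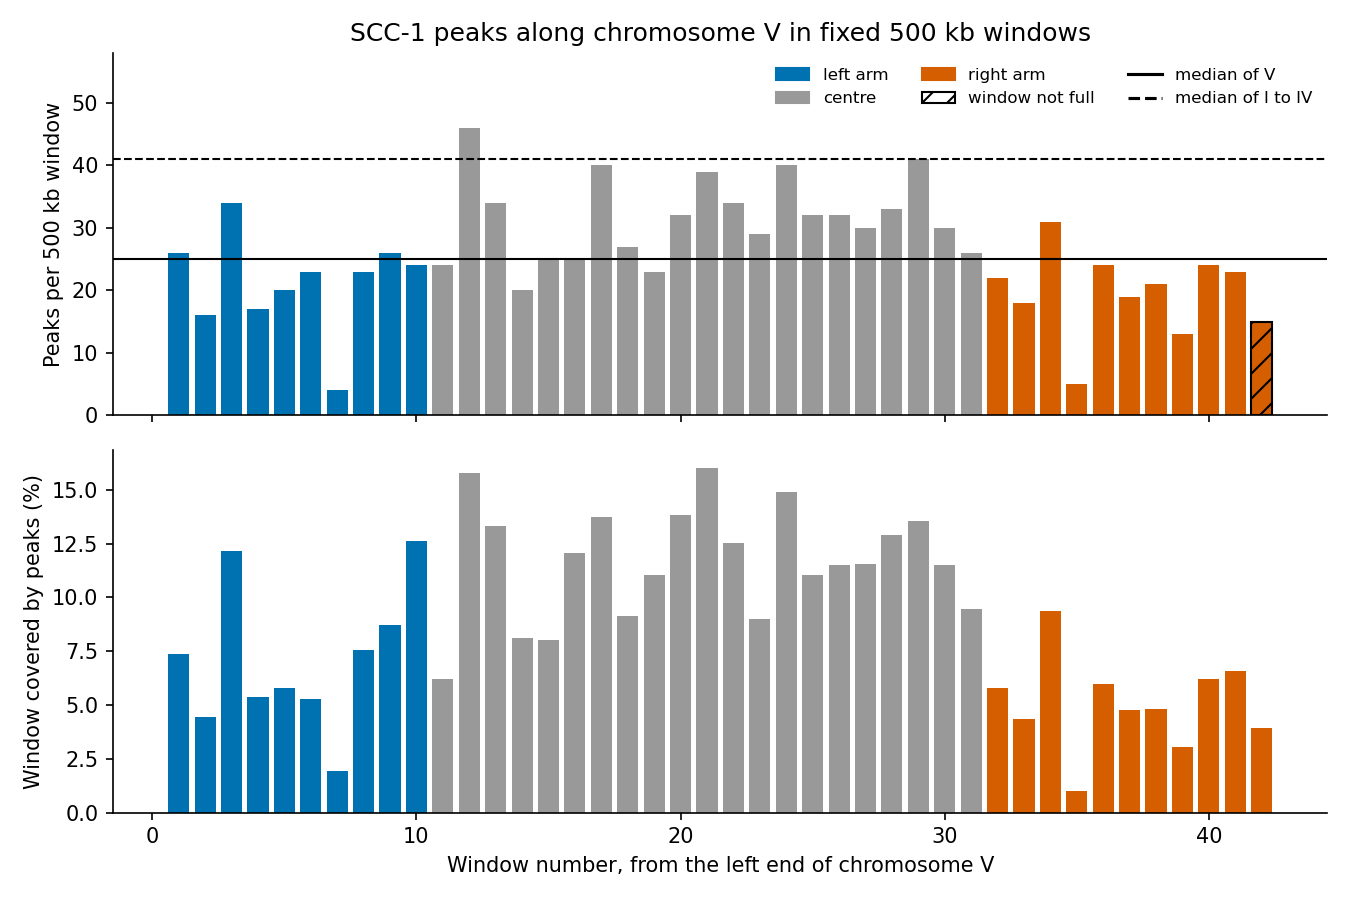
Peaks per fixed 500 kb window (top, number of peaks by midpoint) and share of each 500 kb window covered by peaks (bottom, %) along chromosome V, by window number from the left end, with the left arm in blue, the centre in grey and the right arm in orange. The solid line is the median of full windows of chromosome V, 25 peaks, and the dashed line that of chromosomes I to IV, 41 peaks; windows 7 and 35 stand out with 4 and 5 peaks, and window 42 (hatched) is not full.

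Along the chromosome, the fixed 500 kb windows held between 4 and 46 peaks. The median of the 41 full windows was 25 peaks, with quartiles of 22 and 32, against a median of 41 in the 121 full windows of chromosomes I to IV, with quartiles of 33 and 53. Of the 41 windows of chromosome V, 2 reached the median of the other autosomes, and 5 reached 35, the median of chromosome IV, the next sparsest. The least filled window of chromosomes I to IV held 14 peaks, and 3 windows of chromosome V lay below that. They were window 7, from 3000001 to 3500000 with 4 peaks, window 35, from 17000001 to 17500000 with 5, and window 39, from 19000001 to 19500000 with 13.

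The 5 fullest windows all lay in the centre. Window 12, from 5500001 to 6000000, held 46 peaks, which covered 15.8% of it. Windows 29, 17, 24 and 21 followed with 41, 40, 40 and 39 peaks, the last of them, from 10000001 to 10500000, with the highest covered share, 16.0%. Of the 10 fullest windows, 9 lay in the centre and 1, window 3 with 34 peaks, in the left arm. The fullest window of the other autosomes held 67 peaks on chromosome I, 62 on chromosome II, 68 on chromosome III and 62 on chromosome IV.

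The emptiest windows lay in the arms. After windows 7, 35 and 39 came window 2 with 16 peaks and window 4 with 17, both in the left arm. Covered shares ran as low as 1.01% in window 35 and 1.95% in window 7. Counts were more even in the centre than in the arms. The variance of the counts was 1.46 times their mean over the 21 windows of the centre, 2.95 times over the 10 full windows of the left arm and 2.48 times over the 10 of the right arm, where independent peaks of even density would give 1. Over the 41 full windows, fuller windows tended to hold wider peaks (Spearman's rho between peak number and median width 0.50, Pearson's r 0.39). This is a description, since the windows share 1 library and neighbouring windows are not independent.

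**Figure D2:**
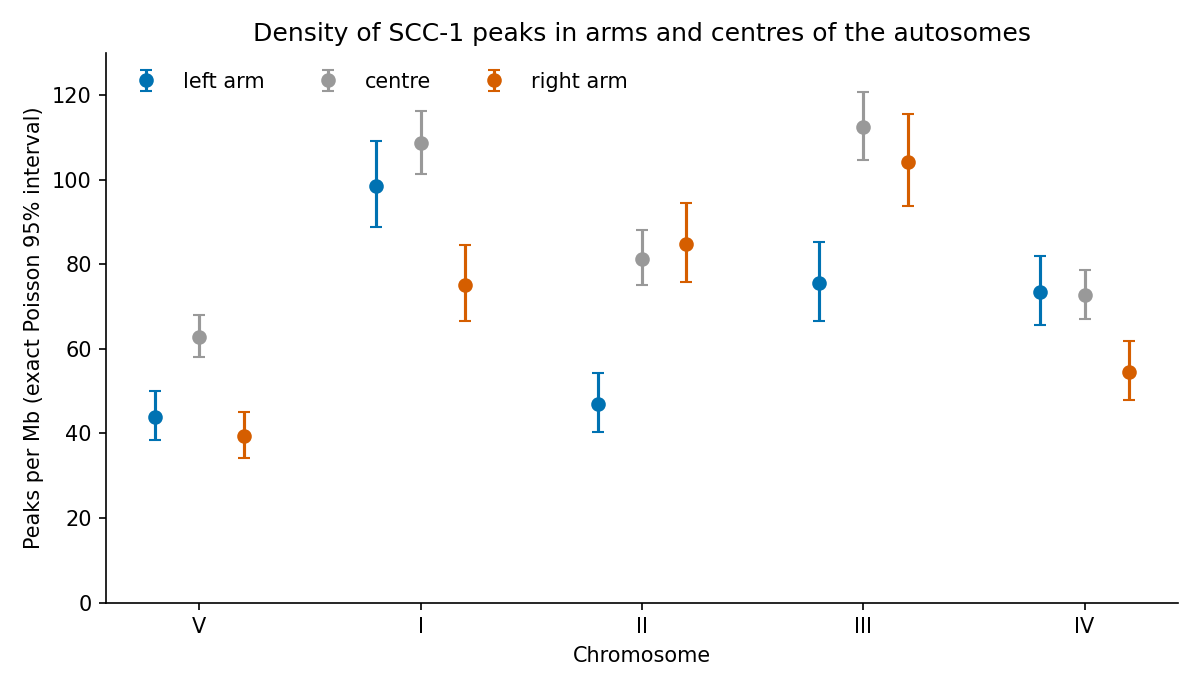
SCC-1 peaks per Mb in the left arm (blue), centre (grey) and right arm (orange) of the 5 autosomes, with exact Poisson 95% intervals. The right and left arms of chromosome V, at 39.3 and 43.9 peaks per Mb, are the lowest points, and the left arm of chromosome II lies close above them at 47.0.

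Both arms of chromosome V were sparser than its centre. An arm is 25% of the span at either end, and a peak belongs to the part that holds its midpoint. The left arm held 229 peaks, or 43.9 per Mb, the centre 656, or 62.9 per Mb, and the right arm 205, or 39.3 per Mb. The arms together had 0.662 of the density of the centre, with an exact binomial 95% interval from 0.585 to 0.748. Between the arms, left over right gave a ratio of 1.12, with an interval from 0.921 to 1.36 that includes 1.

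The contrast between arms and centre was stronger on chromosome V than on the other autosomes. The ratio was 0.662 on chromosome V and 0.820 on chromosomes I to IV. The ratio of chromosome V divided by that of chromosomes I to IV was 0.807, with an exact conditional 95% interval from 0.705 to 0.924. Against single chromosomes this quotient ran from 0.752 for chromosome IV to 0.828 for chromosome III, and the 4 intervals lay below 1, with an upper bound of at most 0.976. For the right arm over the centre the quotient was 0.740, with an interval from 0.621 to 0.880, and for the left arm it was 0.879, with an interval from 0.742 to 1.04 that includes 1. Against single chromosomes this order did not hold throughout. The right-arm quotient was 0.600 for chromosome II and 0.675 for chromosome III, with intervals below 1, but 0.903 for chromosome I (0.730 to 1.12) and 0.834 for chromosome IV (0.667 to 1.04). The left-arm quotient lay below 1 for chromosome I, at 0.770 (0.631 to 0.939), and chromosome IV, at 0.691 (0.561 to 0.849), whereas it was 1.21 for chromosome II (0.960 to 1.52) and 1.04 for chromosome III (0.842 to 1.29).

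Each part of chromosome V was sparser than the same part of chromosomes I to IV. The ratio was 0.597 in the left arm, with an interval from 0.516 to 0.689, 0.680 in the centre, from 0.623 to 0.740, and 0.503 in the right arm, from 0.431 to 0.584. Single autosomes came closer. The left arm did not differ beyond the counting error from that of chromosome II, with 43.9 against 47.0 peaks per Mb, a ratio of 0.935 with an interval from 0.766 to 1.14. The centre came nearest to that of chromosome IV, with 62.9 against 72.7 peaks per Mb, a ratio of 0.865 with an interval from 0.774 to 0.966.

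**Figure D3:**
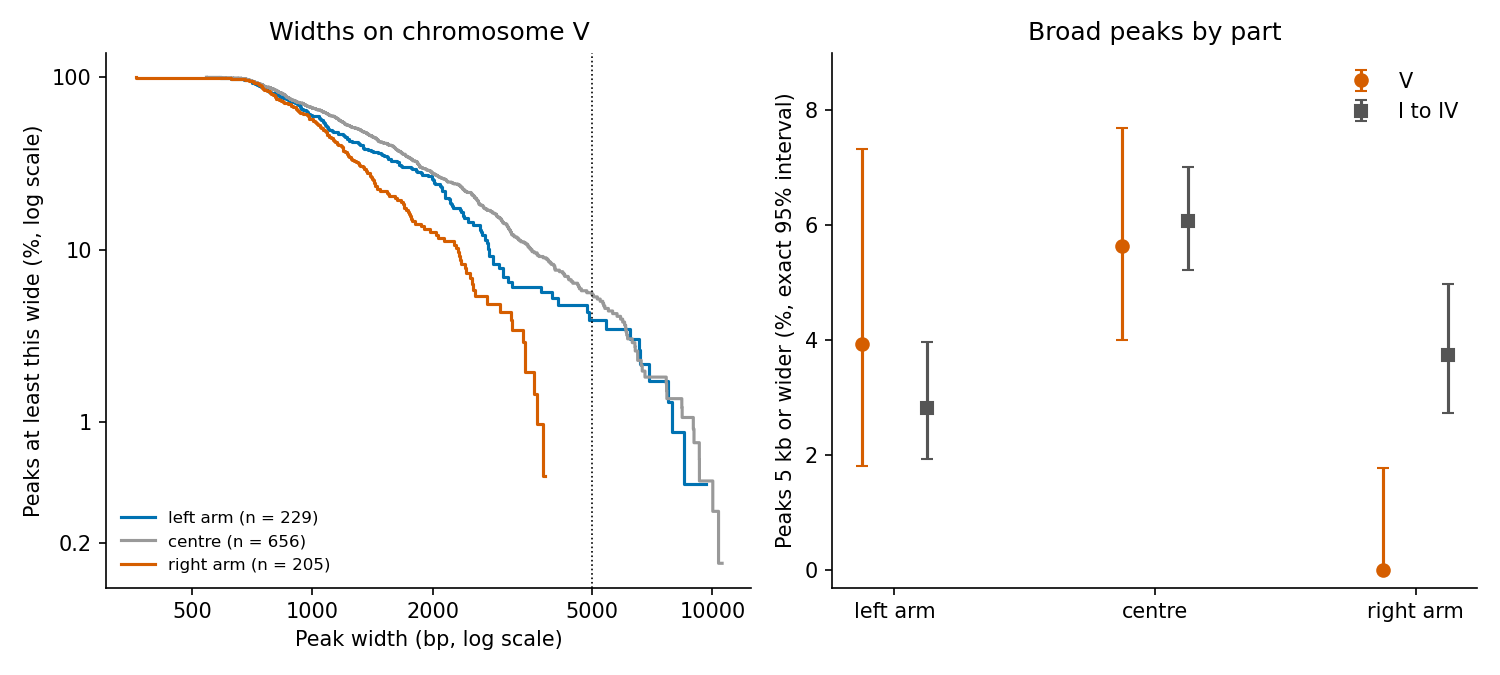
Left, share of peaks at least as wide as the value on the x axis (bp, both axes log) in the left arm, centre and right arm of chromosome V, with a dotted line at 5 kb. Right, share of peaks of 5 kb or wider by part on chromosome V (orange circles) and chromosomes I to IV (grey squares), with exact binomial 95% intervals; the right arm of chromosome V has none, against 3.74% on chromosomes I to IV.

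Peaks on chromosome V were narrower in the median than on chromosomes I to IV together, by little more than the counting error. The median width was 1194.5 bp on chromosome V, with an exact order-statistic 95% interval from 1148 to 1241 bp, against 1270 bp on chromosomes I to IV, with an interval from 1243 to 1297 bp. Against single autosomes, with medians from 1246 bp on chromosome IV to 1293 bp on chromosome II, the interval of chromosome V overlapped each of theirs. Widths on chromosome V ran from 362 to 10578 bp. In the right arm the median was 1066 bp, with an interval from 996 to 1139, against 1201 bp in the right arms of chromosomes I to IV, with an interval from 1153 to 1254. Among single right arms, the interval overlapped those of chromosomes I, 1093 bp (1031 to 1186), and III, 1188 bp (1101 to 1367). It lay below those of chromosomes II, 1269 bp (1167 to 1367), and IV, 1286 bp (1169 to 1473). In the left arm the median on chromosome V was 1099 against 1115 bp on chromosomes I to IV. In the centre it was 1307 against 1386 bp, and in these 2 parts the intervals overlapped. Within each of the 4 score classes, the intervals of the median width also overlapped, from 791 against 797 bp in the lowest class to 2485.5 against 2693 bp in the highest.

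Over the whole of chromosome V, 46 of 1090 peaks, or 4.22%, were 5 kb or wider, against 4.82% on chromosomes I to IV. The ratio was 0.875, with an interval from 0.624 to 1.20 that includes 1. The right arm of chromosome V held no broad peak, a share that was not among the planned results. Of its 205 peaks, 0 were 5 kb or wider, which allows a share of up to 1.78%, the upper bound of the exact 95% interval. In the right arms of chromosomes I to IV 45 of 1203 peaks were that wide, or 3.74%, exact interval 2.74% to 4.97%. The ratio of the shares had an upper 95% bound of 0.501. Each of the other 9 autosomal arms held between 3 and 17 such peaks. Among single right arms, the interval of chromosome V overlapped that of chromosome I, with 2.47% (1.00% to 5.03%). It lay below those of chromosomes II, III and IV, with 4.33%, 3.62% and 4.62%. Low shares were also found in the left arms of chromosomes III, with 1.15% (0.239% to 3.33%), and II, with 1.68% (0.347% to 4.82%). Their intervals overlapped that of the right arm of chromosome V, as did that of the left arm of chromosome IV. The widest peak of the right arm, from 20844868 to 20848695, measured 3828 bp and lay near the end of the chromosome. At a width of 3 kb or more the shares were 9 of 205, or 4.39%, on chromosome V and 116 of 1203, or 9.64%, on chromosomes I to IV, a ratio of 0.455 with an interval from 0.203 to 0.895.

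The part of chromosome V without a broad peak reached beyond the right arm. After the broad peak that ends at base 14846806, the remaining 6.01 Mb of the span held 243 peaks and none of 5 kb or wider. The longest such stretch on another autosome was 3.07 Mb, on chromosome II, and held 135 peaks. That of chromosome III, 1.77 Mb, held 142. These lengths were not scaled to the lower peak density of chromosome V. In the centre and the left arm of chromosome V, the shares of broad peaks did not differ from the other autosomes beyond the counting error. The centre held 37, or 5.64% of its peaks, against 6.07% on chromosomes I to IV, a ratio of 0.929 (interval 0.633 to 1.33). The left arm held 9, or 3.93%, against 2.83%, a ratio of 1.39 with an interval from 0.583 to 2.98. These wide intervals do not show that the shares are equal.

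The 10 widest peaks of chromosome V lay in the centre (8) and the left arm (2), and all 10 had the score 3100. The widest, 10578 bp, ran from 10018061 to 10028638. The next were 10363 bp, from 8412996 to 8423358, and 10026 bp, from 7915334 to 7925359. No other peak of chromosome V reached 10 kb. That makes 3 of 1090 peaks, against 32 of 5182 on chromosomes I to IV, where widths reached 16522 bp on chromosome II. No interval was made for these few peaks, so a difference in their share is not claimed. Peaks of 9641 bp, from 4820095 to 4829735, and 8471 bp, from 3578512 to 3586982, lay in the left arm. The others in the centre measured 9284 bp from 9322705, 9278 bp from 10960333, 8998 bp from 14837809, 8963 bp from 12999809 and 8406 bp from 9542779.

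Broad peaks had high scores. Of the 46 peaks of 5 kb or wider, 40, or 87.0%, scored 3100 or more, against 191 of all 1090 peaks, or 17.5%. Across the 1090 peaks, wider peaks had higher scores (Spearman's rho 0.74, Pearson's r of log width and score 0.69, a description over peaks of 1 library). Whether the peak caller gives wide peaks higher scores by its method was not tested. The 46 broad peaks fell in 24 windows, with at most 4 in one, in windows 10 and 16. Within 2.51 kb on at least 1 side, 32 of the 46 broad peaks had a neighbour, or 69.6% (exact interval 54.2% to 82.3%). Among all 1090 peaks, 711 had one, or 65.2%. The distance was taken from these data, as the largest distance to the nearest neighbour among the 10 widest peaks. All 10 of those meet it by construction, so the comparison cannot show whether broad peaks stand apart.

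Median scores of chromosome V and of chromosomes I to IV together had overlapping intervals over the whole chromosome and separate ones in the right arm. The median score was 461 on chromosome V, with an interval from 403 to 558, against 548 on chromosomes I to IV, with an interval from 504 to 603. In the right arm it was 323, with an interval from 274 to 442, against 525 in the right arms of chromosomes I to IV, with an interval from 464 to 630. Among single right arms, the interval lay below that of chromosome II, 629 (453 to 875). It overlapped those of chromosomes I, 440 (339 to 588), III, 513 (424 to 679), and IV, 595 (412 to 1036). The left arm of chromosome III had a median score of 336 (252 to 399). The highest printed score of chromosome V, 3188, belonged to a peak of 1852 bp from 5274679 to 5276530. Because scores pile up at 3100, this does not rank it above the peaks at that value.

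**Figure D4:**
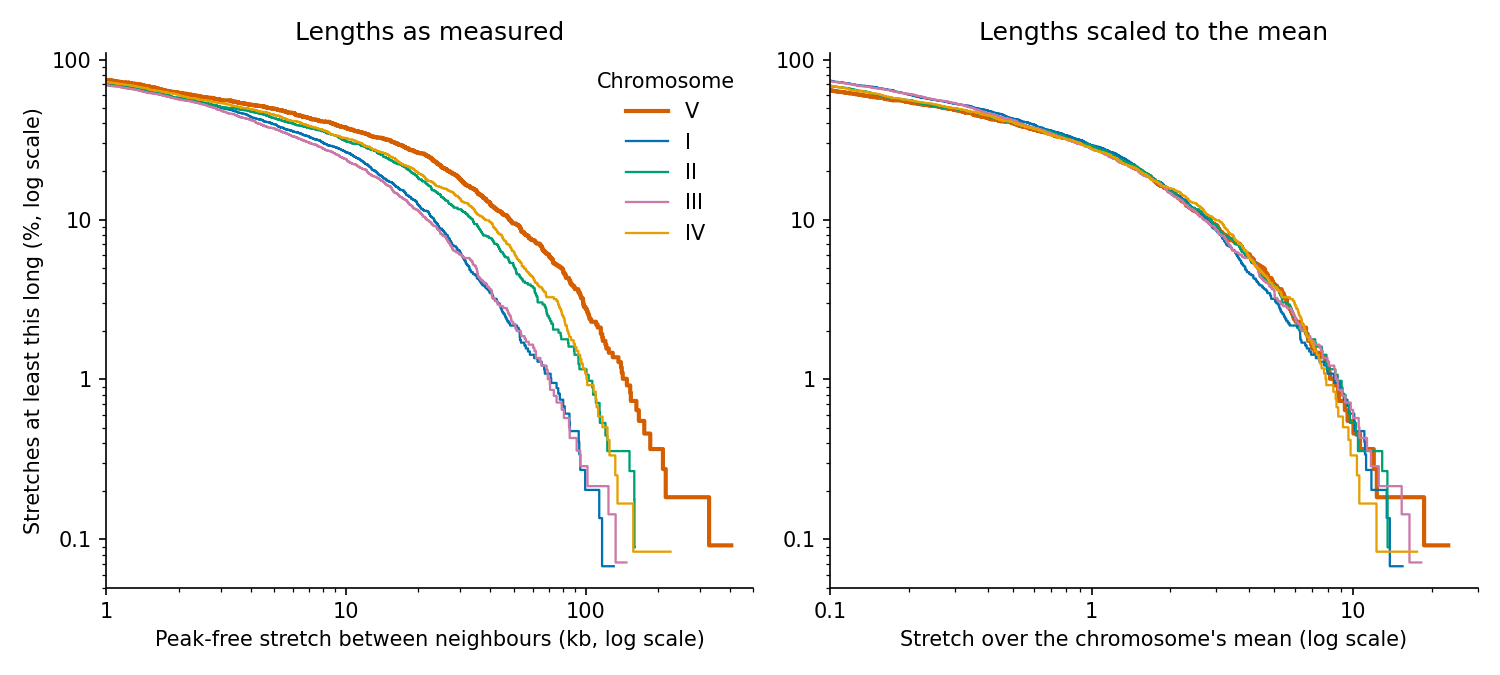
Share of peak-free stretches between neighbouring peaks (%, log scale) at least as long as the value on the x axis, for chromosome V (thick orange line) and chromosomes I to IV. Left, length in kb on a log scale, where 2.75% of stretches on chromosome V reach 100 kb; right, the same lengths divided by the mean stretch of their own chromosome, where 3.95% on chromosome V and 3.61% on chromosomes I to IV reach 5 times the mean.

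Long stretches without a peak were frequent on chromosome V. Of the 1089 stretches between neighbouring peaks, measured from the end of one to the start of the next, 30 were 100 kb or longer, against 33 of 5178 on chromosomes I to IV. The shares were 2.75% on chromosome V (exact binomial 95% interval 1.87% to 3.91%) and 0.637% on chromosomes I to IV (0.439% to 0.894%). Among single autosomes, the interval of chromosome V overlapped that of chromosome II, with 1.16% (0.619% to 1.97%). It lay above those of chromosomes I, with 0.204%, III, with 0.287%, and, narrowly, IV, with 1.09% (0.581% to 1.86%). Stretches of this length made up 4.56 Mb or 21.9% of the span of chromosome V, against 6.76% of the span of chromosomes I to IV. The arms of chromosome V held 21 of the 30, with 10 in the left and 11 in the right, and the centre 9. Without these stretches the density was 66.9 peaks per Mb on chromosome V, against 90.3 on chromosomes I to IV, a ratio of 0.741. This ratio had to rise, since the stretches hold no peak and take up more of the span of chromosome V. No interval was made for it.

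The longest stretch, 404 kb from 2800046 to 3204228, lay in the left arm and spanned windows 6 and 7. The second, 327 kb from 360043 to 686721, also lay in the left arm. A stretch of 215 kb, from 8631886 to 8847290, lay in the centre, and those of 210 kb from 17210756 to 17420435 and 186 kb from 17659456 to 17845125, in the right arm. The longest stretch of another autosome was 226 kb, on chromosome IV, followed by 160 kb on chromosome II, 148 kb on chromosome III and 131 kb on chromosome I. In the left arm, a further stretch of 166 kb began at 3268009. It and the longest stretch took up most of window 7, and 1 of the 4 peaks there was 6948 bp wide with a score of 215.

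Measured against its own mean, the spacing on chromosome V did not differ from that of the other autosomes beyond the counting error at the long end. The mean stretch was 17.4 kb on chromosome V and 10.1 kb on chromosomes I to IV. Stretches of 5 times the chromosome's mean or longer were 43 of 1089 on chromosome V, or 3.95% with an interval from 2.87% to 5.28%. On chromosomes I to IV they were 187 of 5178, or 3.61% with an interval from 3.12% to 4.16%. At 10 times the mean the shares were 0.551% on chromosome V and 0.541% on chromosomes I to IV. The longest stretch of chromosome V was 23.2 times its mean, and the longest scaled stretch of another autosome was 18.3 times, on chromosome III. At the short end the order depended on the scale, and not every difference exceeded the counting error. In length, 50.7% of the stretches on chromosome V were under 5 kb (interval 47.7% to 53.7%), against 59.0% on chromosomes I to IV (57.6% to 60.3%). Under 2 kb the shares were 37.9% on chromosome V (35.0% to 40.88%) and 42.3% on chromosomes I to IV (40.94% to 43.7%), and under 1 kb they were 25.4% and 29.1%, with intervals that overlapped. Relative to the mean, stretches under 0.1 of it were more common on chromosome V, with 35.6% (32.8% to 38.6%), against 28.8% on chromosomes I to IV (27.6% to 30.1%). For that share the interval of chromosome V overlapped those of chromosomes II, with 31.7%, and IV, with 31.3%. It lay above those of chromosomes I, with 26.3%, and III, with 27.1%. Under 0.2 of the mean the intervals overlapped narrowly. The shares were 45.6% on chromosome V (42.65% to 48.65%) and 41.5% on chromosomes I to IV (40.12% to 42.82%). Under 0.5 of the mean, with 59.96% on chromosome V and 58.59% on chromosomes I to IV, the intervals overlapped too.

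Peaks far from any other were also more common on chromosome V than on chromosomes I to IV together, at a distance not scaled to the mean stretch. Peaks with at least 50 kb free on both sides numbered 19, or 1.74% with an interval from 1.05% to 2.71%, against 23 on chromosomes I to IV, or 0.444% with an interval from 0.282% to 0.665%. The interval of chromosome V overlapped those of chromosomes II, with 0.713% (0.308% to 1.40%), and IV, with 0.754% (0.345% to 1.43%). It lay above those of chromosomes I, with 0.204%, and III, with 0.215%. The narrowest peak of the whole list, 362 bp from 18412324 with a score of 62.6, lay in the right arm of chromosome V before a stretch of 121 kb.

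**Figure D5:**
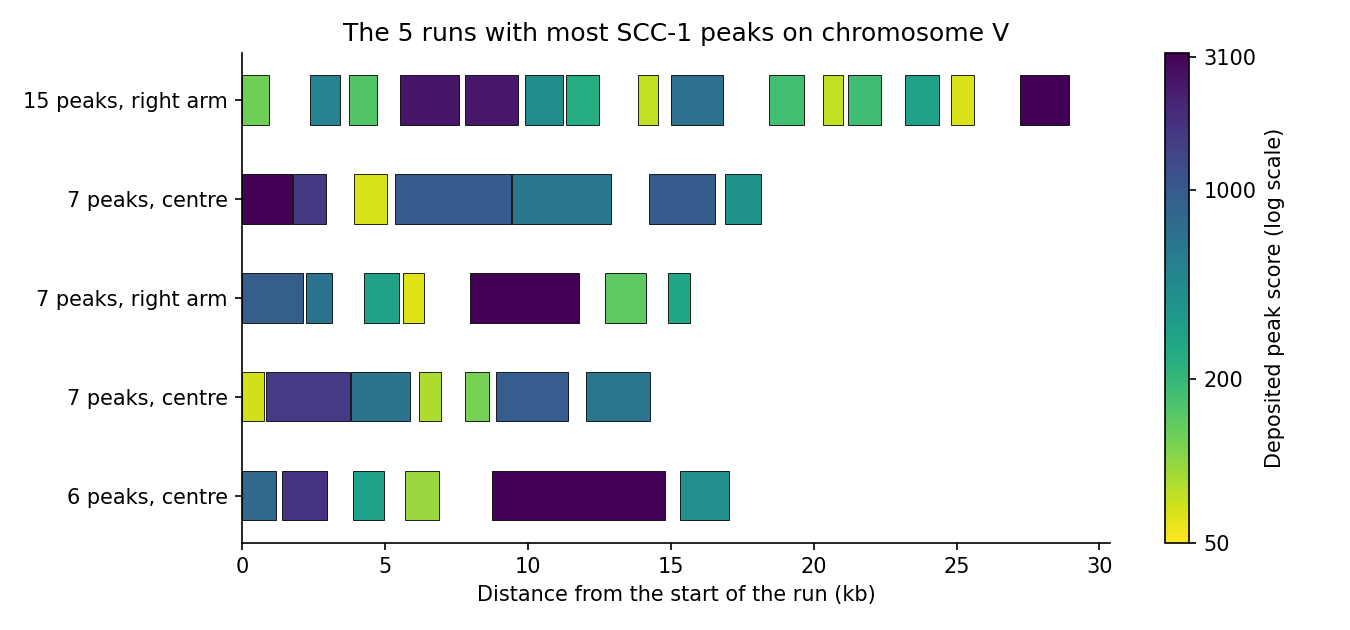
The 5 runs with most SCC-1 peaks on chromosome V, each drawn from the start of the run (x axis, kb), with 1 bar per peak to its width and coloured by the deposited score on a log scale. The run at the top, in the right arm, has 15 peaks, against 7, 7, 7 and 6 in the next runs.

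Dense runs of peaks were scarce on chromosome V, yet the run with most peaks of any autosome lay there. A run is a set of 5 or more peaks in which each starts within 2 kb of the end of the one before. Chromosome V had 11 runs with 74 peaks, or 6.79% of its peaks (exact interval 5.37% to 8.45%). Chromosomes I to IV had 121 runs with 698 peaks, or 13.5% (12.6% to 14.4%). With the distance scaled by the ratio of the mean stretches, to 3.47 kb on chromosome V, 21 runs held 12.1% of its peaks, with an interval from 10.2% to 14.2% that overlaps that of chromosomes I to IV. When peaks with at most 500 bp between them were merged, the share was 2.52% on chromosome V, against 3.15% on chromosomes I to IV.

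The largest run held 15 peaks on 28.9 kb, from 16786455 to 16815394 in the right arm. The fullest run of another autosome had 11 peaks, on chromosome I. It was slightly longer, at 29.9 kb, and peaks covered 73.3% of it, so the run on chromosome V was larger by peak number only. The 15 peaks of the run on chromosome V were between 689 and 2059 bp wide, with 103 to 1641 bp between neighbours, and covered 64.5% of the run. Their scores ran from 63.7 to 3100 with a median of 249, and 1 of the 15 reached 3100. The run stood apart, with 38.8 kb free before it and 61.5 kb after it. It supplied 15 of the 31 peaks of window 34, the fullest window of the right arm.

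The next runs had 7 peaks each. One in the centre ran over 18.1 kb from 9382253 to 9400392, and another over 14.3 kb from 10202225 to 10216499. One more, of 15.7 kb from 20836899 to 20852551, lay at the right end, and its last peak was the last peak of the chromosome. It held the widest peak of the right arm. The next run, in the centre from 14443322 to 14460344, had 6 peaks, 1 of them 6072 bp wide. The median width was 1227.5 bp for the 74 peaks in runs (interval 1141 to 1451 bp), against 1191 bp for the 1016 others (1135 to 1241 bp), and the intervals overlapped. At the left end, the first peak began at base 1, was 628 bp wide and had a score of 1185, with 5.57 kb to the next.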

How the data were processed

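The submitters' processing notes name BWA and the build ce10, and per the file headers the peaks lie on WormBase WS220, called with MACS. No version or threshold of MACS, nor its use of the input library, is stated in these sources. Each deposited peak has a 1-based start and end and a score, the authors' own value on an unnamed scale. The lowest score was 50.08, 1182 peaks had exactly 3100 and 57 had more. Scores were used within the list only, and depth is unknown. 1 file, with 1 value column, was left out because its peak names give another target than the samples have.

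A chromosome's span ran from its first to its last peak, and windows of 500 kb began at base 1. Regions named are the 10 widest peaks, 5 longest peak-free stretches, 5 largest runs, 5 fullest and 5 emptiest full windows, highest-scoring and end peaks, and the fullest window and longest stretch of each other autosome. The narrowest peak, the widest of the right arm, the stretch without broad peaks and the stretch of 166 kb were chosen after their values were seen. Density ratios carry exact Clopper-Pearson 95% intervals, quotients of ratios exact conditional ones and medians order-statistic ones. Peaks are not replicates, and no test between samples was possible. Functions were checked on simulated lists of peaks. The members and lists were chosen with earlier results of these data known. Software was Python 3.11.15 with scipy 1.17.1, numpy 2.4.6 and, for plots, matplotlib 3.10.9.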

Additional observations from a re-analysis of the deposited data

How the results depend on the processing

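The density ratio of chromosome V to chromosomes I to IV and its ratio of arms to centre stayed below 1, with intervals below 1 where one was made, under every alternative run, from 0.578 to 0.659 and from 0.492 to 0.717. The ratio of left to right arm was 1.37 in the top 50% of peaks by score, with an interval from 1.03 to 1.85 that no longer included 1, and included 1 in the other alternatives. In the top 50% and the top 25% by score, the median width of chromosome V peaks was 1856.5 and 2485.5 bp, and it was 1345.5 bp when peaks with at most 500 bp between them were merged. The share of 5 kb or wider was then 8.27%, 15.5% and 7.57%. The values on chromosomes I to IV moved the same way, to 9.22%, 17.6% and 10.2%. After merging, the interval of chromosome V, from 5.93% to 9.48%, lay below the value of chromosomes I to IV, for which no interval was made. Stretches of 100 kb or longer numbered 47 and 63 in the top 50% and 25%, since fewer peaks leave longer stretches. They lay among 532 and 264 peaks of chromosome V. On chromosomes I to IV they numbered 77 and 137, among 2678 and 1347 peaks. Per peak they were thus more frequent on chromosome V. The share of peaks in runs was 0% in both subsets, 2.52% after merging, 4.40% with neighbours within 1 kb, 16.8% within 5 kb, 12.1% with the scaled distance and 33.4% for runs of 3 or more. In the right arm, the share of 5 kb or wider was 0% with arms of 20%, 1.13% with arms of 30% and 1.14% after merging, against 3.23%, 3.86% and 8.40% on chromosomes I to IV. It was 0% at 4 kb and 4.39% at 3 kb, against 5.90% and 9.64%. The median window count was 27 with windows shifted by 250 kb. The scaled distance, the share of broad peaks in the right arm with its settings, and the other windows were chosen after seeing the data. No paired analysis was possible because each group has 1 library, and only the ChIP library has a peak list here. Where peaks are missing, low read depth there could not be examined, since no read counts were used.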
